A study of Mus musculus with 26 samples.

Results

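The MHC class II antigen presentation genes of the mouse male reproductive tract are described here, gene by gene, in the initial segment (IS) of the epididymis, the caput epididymis and the testis. The set was chosen by symbol and holds 10 genes of the 23337 in the count tables: the chains H2-Aa, H2-Ab1 and H2-Eb1, the invariant chain gene Cd74, the peptide editors H2-DMa, H2-DMb1, H2-DMb2, H2-Oa and H2-Ob, and the regulator Ciita. All 10 had a row in every sample. RNA was sequenced from 26 samples of 3 months old males on a C57Bl/6N; 129 hybrid background. The ArKI mice carry an androgen receptor gene in which the lysines that accept SUMO (a small protein attached to other proteins) were changed to arginines, in the germ line and so in every cell of the animal. The WT mice carry the unchanged receptor gene. The groups were 5 ArKI and 5 WT samples of the IS, 5 ArKI and 5 WT samples of the caput, and 3 ArKI and 3 WT samples of the testis. Levels are given as CPM (a gene's count relative to the total count of its library) after TMM scaling over all samples, and the question of the design was how each gene differed between genotypes and between tissues.

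Class II molecules are pairs of an alpha and a beta chain that carry peptides from the endosome to the cell surface, where CD4 T cells read them. The invariant chain holds the groove shut until a DM dimer (DMa with a DMb chain) helps to exchange its remnant for a peptide, and the DO dimer (Oa with Ob) restrains DM. CIITA is the transcriptional coactivator that most class II genes need, and it acts through proteins bound to the X and Y boxes of their promoters. In the epididymis, mononuclear phagocytes lie among the epithelial cells and are known to be most dense in the IS.

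Of the 10 genes, 8 lie together on chromosome 17 of GRCm38 (the mm10 build the authors aligned to), between positions 34092340 and 34316674, a span of 224.3 kb. In that span H2-DMb2 and H2-DMb1 are neighbours, 1.52 kb apart. Ciita is at 10480059 to 10528418 of chromosome 16, and Cd74 lies on a different chromosome from both. RefSeq promoters (build GRCm38.p6, 250 bases before to 50 after the transcription start) were found for 7 of the 10 genes, 8 promoters in all since H2-DMa has a pair, namely H2-Aa, H2-Eb1, H2-DMa, H2-DMb1, H2-DMb2, H2-Oa and H2-Ob. The Y box core ATTGG, searched on both strands (CCAAT on the other), was in 7 of the 8, with 1 of the H2-DMa promoters lacking it, against 37.41% of the 32851 promoters of the table. In 5 of the 8 (H2-Aa, H2-Eb1, H2-DMb1, H2-Oa and H2-Ob) the letters GNAAC, part of the X box, began 29 to 34 bases before ATTGG on the same strand, a spacing chosen after these sequences were seen. That pair was in 1.001% of all promoters. The stretches are shown because they carry the shared element through which CIITA is known to act. Capitals mark GNAAC and ATTGG, and each sequence reads 5′ to 3′ along the strand of its gene.
H2-Aa, minus strand, chr17:34287859-34287913: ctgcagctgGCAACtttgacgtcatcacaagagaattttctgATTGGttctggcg
H2-Eb1, plus strand, chr17:34305766-34305820: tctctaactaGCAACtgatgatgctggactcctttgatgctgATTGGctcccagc
H2-DMb1, plus strand, chr17:34153088-34153142: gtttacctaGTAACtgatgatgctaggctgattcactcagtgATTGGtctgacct
H2-DMb2, plus strand, chr17:34145117-34145171: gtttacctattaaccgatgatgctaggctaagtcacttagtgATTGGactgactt
H2-Oa, plus strand, chr17:34092294-34092348: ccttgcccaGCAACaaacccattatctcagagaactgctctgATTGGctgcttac
H2-Ob, plus strand, chr17:34238806-34238860: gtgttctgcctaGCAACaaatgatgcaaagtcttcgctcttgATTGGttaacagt
In these lines the H2-DMb2 stretch has ATTGG but not GNAAC at that spacing, and the rest of it runs close to the H2-DMb1 stretch. A match of letters is a description of the window and shows no binding.

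The libraries held 5829074 to 9770625 counts in the IS, 4125768 to 11913469 in the caput and 14077013 to 21376604 in the testis. The shallowest was caput ArKI replicate 2, which also had the highest summed level of smooth muscle markers (1200 CPM, against 552 to 834 CPM as the lowest ArKI and the highest WT caput sample) and of leukocyte markers among the caput samples, so the calls in the caput are also given without it. All replicates of a group differed by more than sampling noise. The mutation leaves the androgen receptor transcript in place, so its count does not check the genotype labels. As checks of the tissue labels, late germ cell markers summed to at least 14329.5 CPM in every testis sample, and the IS gene Lcn8 had a mean of 12847 CPM in WT IS against 488 CPM in WT caput. The same germ cell markers summed to 146 to 233 CPM in WT caput and 18.5 to 57.1 CPM in ArKI caput, and their part in the results was not tested. In whole tissue, more cells of a type and more RNA per cell cannot be told apart.

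The levels were compared first in WT tissue, per kilobase of exon, so that genes of different length can be set side by side. Cd74 led in every tissue, at 69.9 ± 11.3 CPM per kb (SD, n = 5) in the IS, 44.1 ± 4.89 (n = 5) in the caput and 11.7 ± 3.24 in the testis (n = 3), where its samples overlapped those of H2-Ab1. In the WT IS it was followed by H2-Aa at 40.6 ± 8.07, H2-DMb2 at 36.7 ± 2.30, H2-Ab1 at 27.6 ± 2.65, H2-DMb1 at 26.1 ± 2.96, H2-Eb1 at 21.4 ± 4.49 and H2-DMa at 16.6 ± 0.584 CPM per kb. The samples of neighbouring genes overlapped in this order except between Cd74 and H2-Aa, between H2-DMb2 and H2-Ab1, and after H2-DMa. H2-Ob, Ciita and H2-Oa were last in the IS, each under 0.5 CPM per kb and overlapping one another. In the WT caput the order was Cd74, H2-Aa at 28.5 ± 2.67, H2-Ab1 at 17.7 ± 3.21, H2-Eb1 at 14.0 ± 1.69, H2-DMb1 at 13.3 ± 1.13, H2-DMa at 7.01 ± 0.356 and H2-DMb2 at 1.78 ± 1.28 CPM per kb. H2-Ab1 overlapped H2-Eb1 and H2-Eb1 overlapped H2-DMb1 there, and the others named were apart from their neighbours. H2-DMb2 moved from the third place in the IS to the last of these in the caput. In the WT testis H2-Ab1, at 10.7 ± 1.37 CPM per kb, had a higher mean than H2-Aa, at 7.79 ± 2.24, with overlapping samples.

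**Figure D1:**
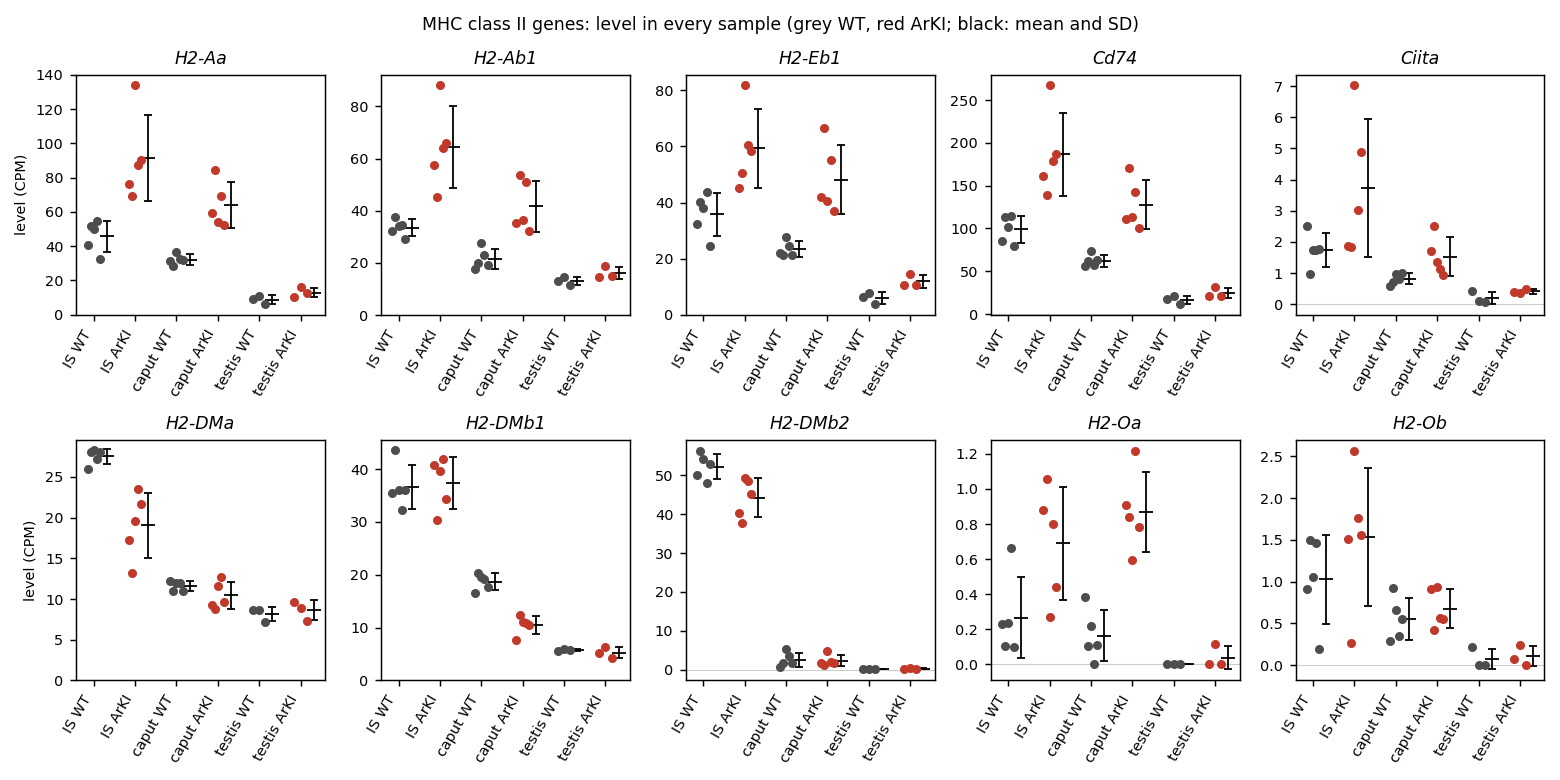
Level of each class II gene (CPM, linear axis, a separate scale per panel) in every sample of the 6 groups, with WT points in grey and ArKI points in red, and the mean and SD of each group in black beside them. H2-Aa, H2-Ab1, H2-Eb1 and Cd74 are higher in ArKI than in WT in both segments without overlap, whereas H2-DMa is lower in the ArKI IS and H2-DMb1 in the ArKI caput.

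The ratio of H2-Aa to H2-Ab1, per kilobase, ran from 1.21 to 1.88 over the 20 epididymal samples, from 0.574 to 0.811 in WT testis and from 0.755 to 0.915 in ArKI testis. The alpha chain transcript was therefore above its beta partner in all epididymal samples and below it in all testis samples. Cd74 to H2-Aa varied less, between 1.38 and 1.93 over the epididymis and between 1.36 and 1.63 over the testis. H2-Eb1 has no alpha partner transcript here: H2-Ea-ps, the Ea gene that the b haplotype of C57Bl/6 and 129 mice is known not to transcribe, was at 0 counts in all 20 epididymal samples and at most 1 count in a testis sample. H2-Eb2, a second E beta gene, was at 1 to 3 counts in the ArKI IS samples and 0 to 1 in WT IS, too few to test. H2-Eb1 itself stood at 0.399 to 0.541 times H2-Aa per kilobase over the epididymal samples.

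All 7 genes that passed the filter on low counts were higher in WT IS than in WT caput (edgeR adjusted p below 0.05), where 35.8% of the 13787 genes tested were called higher and 35.4% lower. H2-DMb2, with 7 counts in caput WT replicate 1, needed IS samples to pass, so its direction was in part set by the filter. A stricter filter, which dropped any gene that fell under 10 counts in a sample, left 6 genes, and all 6 were called higher. The segment difference was largest for the DM genes. H2-DMb2, a DM beta chain, read 50.02, 56.3, 54.1, 48.1 and 52.8 CPM in WT IS and 0.670, 1.64, 5.26, 3.44 and 1.65 CPM in WT caput. The groups were far apart, with a log2 fold change of 4.39 (SE 0.272, edgeR adjusted p = 3.10e-07). H2-DMa was higher in the IS by 1.24 (SE 0.0740, edgeR adjusted p = 7.37e-12) and H2-DMb1 by 0.97 (SE 0.0824, edgeR adjusted p = 1.70e-09) on the log2 scale. The chain genes and Cd74 differed less, by 0.50 for H2-Aa, 0.64 for H2-Ab1, 0.60 for H2-Eb1 and 0.66 for Cd74, with edgeR adjusted p between 4.98e-05 and 0.00747. Over the 7 genes the median was 0.66, against 0.00 over all genes tested. Of the 13 macrophage markers 10 were also higher in WT IS and 2 lower, with Cx3cr1 at 1.26, Adgre1 at 1.15, Csf1r at 1.08 and C1qc at 1.07 on the log2 scale. Their part in the class II difference was not tested.

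Among the class II genes that passed the filter, H2-DMb2 varied most in relation to its mean within the WT caput (2.53 ± 1.82 CPM), and the samples high in it were also high in genes of the IS. In caput WT replicates 3 and 4 it stood at 10.1% and 6.58% of its WT IS mean, and in the other WT caput samples at 1.28% to 3.16%. The IS genes Lcn8 and Cst8, which encode a lipocalin and a cystatin, were at 7.87% and 9.67% of their WT IS means in replicate 3 and at 8.42% and 9.13% in replicate 4, and at 1.90% or below in the other WT caput samples. The gap was narrower for the IS gene Rnase10, at 11.5% and 13.5% in replicates 3 and 4 and at 1.81% to 4.96% in the others. Among ArKI caput samples replicate 3 was the highest in all of these, with H2-DMb2 at 9.23%, Lcn8 at 2.80%, Cst8 at 2.59% and Rnase10 at 6.44%. Whether these samples held tissue of the neighbouring segment was not tested.

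**Figure D2:**
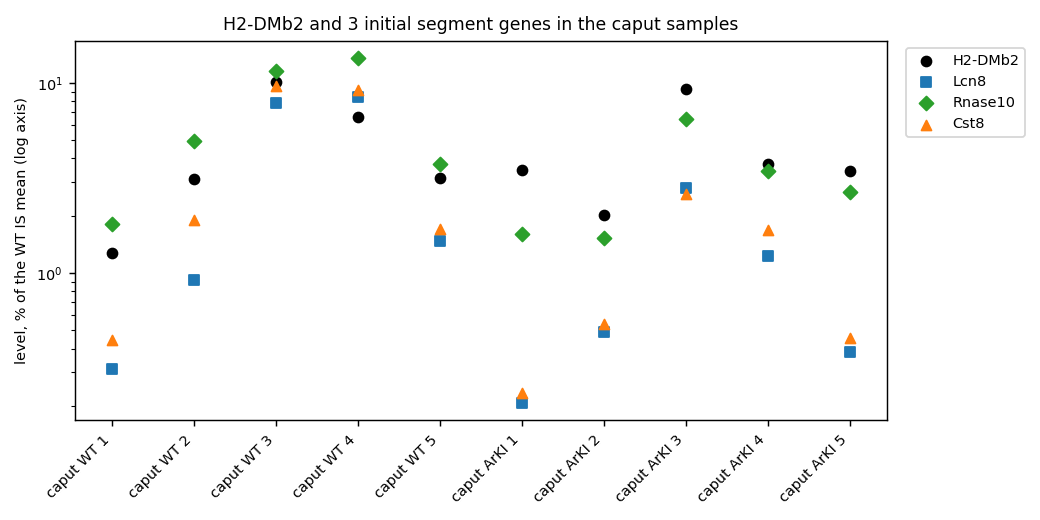
Level of H2-DMb2 and of the IS genes Lcn8, Rnase10 and Cst8 in each caput sample, as a percentage of the mean of the gene in WT IS (log axis), one point per gene and sample. Caput WT 3, caput WT 4 and caput ArKI 3 are the highest of their genotypes, and H2-DMb2 is between 6.58% and 10.1% there.

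All 8 class II genes that passed the filter were lower in WT testis than in the mean of WT IS and WT caput, where 49.5% of the 16402 genes tested were called higher and 43.4% lower. H2-DMb2 and Ciita passed only through the epididymal samples, so their direction was set by the filter, and 6 genes were tested and lower with at least 10 counts in every sample. Testis and epididymis came from separate sequencing runs, and the effect of the run cannot be told apart from that of the tissue. The scaling mattered too: the median over all genes was 0.17 with TMM, 0.29 with RLE factors and -0.23 with library size only, on the log2 scale. H2-DMb2, at 3 counts in each WT testis sample, stood at -5.43 (SE 0.538) and Ciita at -2.34, both with the direction set by the filter. Of the other 6 genes, H2-Eb1, Cd74, H2-DMb1 and H2-Aa lay between -2.22 and -2.08. H2-DMa at -1.08 and H2-Ab1 at -0.99 differed least. H2-Oa had no count in any WT testis sample, which allows up to 0.216 to 0.265 CPM, and H2-Ob had 3 counts in replicate 1 and none in the others. Such limits for a count of 0 cover counting error only.

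In the IS, the chains, the invariant chain and Ciita were higher in ArKI than in WT, from 1.67-fold (H2-Eb1) to 2.15-fold (Ciita), while H2-DMa and H2-DMb2 were lower. Of the 9 genes tested 5 were called higher and 2 lower (edgeR adjusted p below 0.05), where 15% of the 13434 genes tested were called higher and 14.6% lower. Their median log2 fold change was 0.74 against 0.00 over all genes.

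H2-Aa, the alpha chain of the A molecule, read 40.5, 51.5, 50.04, 54.6 and 32.6 CPM in WT IS and 76.6, 69.4, 133.9, 87.5 and 90.4 CPM in ArKI IS. The lowest ArKI sample was above the highest WT sample. The difference was 1.00 on the log2 scale (SE 0.215, edgeR adjusted p = 0.00827), or 2.01-fold, with a 95% interval of 0.58 to 1.43 on the log2 scale. Its beta chain gene H2-Ab1 read 32.1, 37.7, 34.1, 34.5 and 28.97 CPM in WT and 57.7, 45.4, 88.3, 64.0 and 66.0 CPM in ArKI. Here too the genotypes did not overlap, and the difference was 0.94 (SE 0.165, edgeR adjusted p = 0.00213).

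H2-Eb1, the beta chain of the E molecule, read 32.4, 40.2, 37.9, 43.7 and 24.5 CPM in WT IS and 45.2, 50.5, 81.7, 60.5 and 58.5 CPM in ArKI IS. The ArKI samples began just above the highest WT sample. The difference was 0.74 (SE 0.202, edgeR adjusted p = 0.0241), and it lost its call without IS WT replicate 1 (edgeR adjusted p = 0.0563). Cd74, the invariant chain, read 85.6, 113.6, 102.2, 114.2 and 79.1 CPM in WT and 161.4, 138.8, 267.0, 179.0 and 186.8 CPM in ArKI. The genotypes were apart by 0.92 (SE 0.193, edgeR adjusted p = 0.00759). In all 4 genes ArKI replicate 3 was the highest sample. Without it the differences were 0.83 for H2-Aa, 0.80 for H2-Ab1, 0.59 for H2-Eb1 and 0.75 for Cd74, and all kept their calls.

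Ciita read 2.51, 0.966, 1.75, 1.73 and 1.77 CPM in WT IS and 1.88, 1.85, 7.02, 3.04 and 4.88 CPM in ArKI IS, from 9 to 22 and from 14 to 52 counts. ArKI replicates 3 and 5 were the high ones, and the lowest ArKI samples lay within the WT range. The difference was 1.10 (SE 0.376, edgeR adjusted p = 0.0396). The call rested on few counts: it was lost without any one of ArKI replicates 3, 4 and 5 or WT replicates 2, 3, 4 and 5, with edgeR adjusted p from 0.0509 to 0.0914, and also with limma-voom (adjusted p = 0.0653). Without ArKI replicate 3 the difference was 0.76.

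The DM genes did not follow the chains. H2-DMa, the alpha chain of the peptide editor, read 26.0, 28.1, 28.3, 27.2 and 28.1 CPM in WT IS and 17.3, 13.2, 19.6, 23.5 and 21.7 CPM in ArKI IS. All ArKI samples were below all WT samples, and H2-DMa fell by 0.53 on the log2 scale (SE 0.110, edgeR adjusted p = 0.00128). H2-DMb1 read 32.2 to 43.6 CPM in WT and 30.3 to 41.9 CPM in ArKI. The samples overlapped throughout, and the difference was 0.02 (95% interval -0.16 to 0.20, edgeR adjusted p = 0.897).

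H2-DMb2 read 50.02, 56.3, 54.1, 48.1 and 52.8 CPM in WT IS and 40.4, 37.9, 49.3, 48.5 and 45.3 CPM in ArKI IS. It fell by 0.25 (SE 0.0717, edgeR adjusted p = 0.0137) with some overlap, and the call was lost when the caput groups shared the estimate of spread (edgeR adjusted p = 0.348). Of the 50-base windows of its transcript 32.8% also occur in other genes, as do 27.23% of those of H2-DMb1, and reads from such windows are dropped when only uniquely mapped reads are counted. The DMb levels are uncertain for that reason.

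The DO genes were near the counting limit. H2-Oa was under the filter, with 1 to 5 counts in WT IS samples and 2 to 8 in ArKI, and group means of 0.267 ± 0.232 and 0.689 ± 0.323 CPM (SD, n = 5). The difference of log2(CPM + 0.5) was 0.63 (exact permutation test, two-sided, p = 0.0397), and the samples overlapped. It is 1 of 8 exact tests made on class II genes under the filter, and with Benjamini-Hochberg adjustment over these 8 its exact test gave 0.106, so it did not pass 0.05. H2-Ob had a mean of 1.03 ± 0.530 CPM in WT and 1.53 ± 0.826 CPM in ArKI IS, a difference of 0.60 that was not called (SE 0.464, edgeR adjusted p = 0.370).

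**Figure D3:**
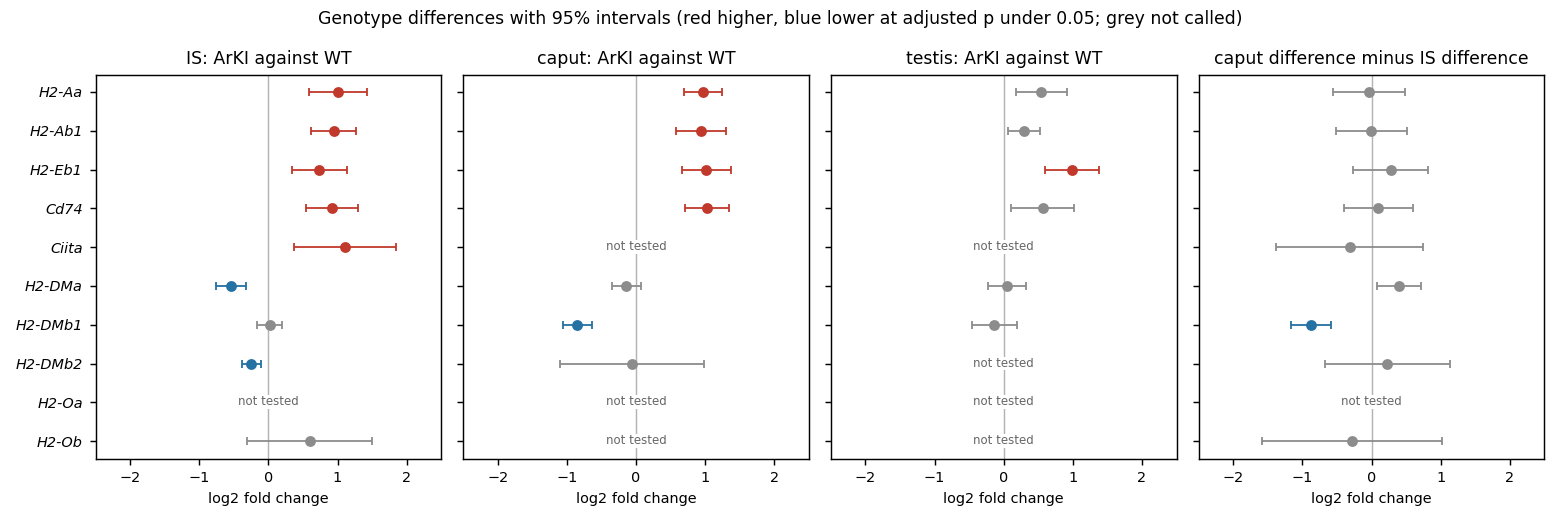
Log2 fold change of each class II gene with its normal 95% interval in the ArKI against WT comparison of the IS, caput and testis, and, at the right, the caput difference minus the IS difference. Red and blue points are called higher and lower, grey points are not called, and genes under the filter on low counts are marked as not tested. Only H2-DMb1 is called in the right panel, at -0.88.

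In the caput, the chains and the invariant chain were again higher in ArKI than in WT by about 2-fold, and H2-DMb1 was lower. Of the 7 genes tested 4 were called higher and 1 lower, where 13.7% of the 13726 genes tested were called higher and 14% lower. Their median log2 fold change was 0.94 against 0.00 over all genes.

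H2-Aa read 31.1, 28.4, 36.7, 32.7 and 31.8 CPM in WT caput and 59.4, 84.3, 54.3, 69.6 and 52.3 CPM in ArKI caput. The genotypes did not overlap, and the difference was 0.97 (SE 0.140, edgeR adjusted p = 0.000410). H2-Ab1 read 17.8, 19.8, 27.5, 22.9 and 19.1 CPM in WT and 35.2, 53.6, 36.6, 50.9 and 32.3 CPM in ArKI. It differed by 0.94 (SE 0.183, edgeR adjusted p = 0.00357), also without overlap.

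H2-Eb1 read 21.9, 21.2, 27.7, 24.7 and 21.3 CPM in WT caput and 41.8, 66.7, 40.4, 55.0 and 36.9 CPM in ArKI caput. The difference was 1.02 (SE 0.178, edgeR adjusted p = 0.00198). Cd74 read 56.2, 62.2, 73.4, 56.8 and 63.5 CPM in WT and 110.6, 171.0, 113.0, 142.5 and 100.9 CPM in ArKI. The difference was 1.02 (SE 0.161, edgeR adjusted p = 0.00125), and in both genes all ArKI samples were above all WT samples. ArKI replicate 2, the sample high in smooth muscle and leukocyte markers, was the highest in all 4 genes and replicate 4 came next. Without replicate 2 the differences were 0.87 for H2-Aa, 0.85 for H2-Ab1, 0.89 for H2-Eb1 and 0.90 for Cd74, all still called, and the caput count was again 4 higher and 1 lower.

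H2-DMb1 read 16.5, 20.4, 19.6, 19.3 and 17.6 CPM in WT caput and 7.73, 12.4, 11.01, 10.8 and 10.46 CPM in ArKI caput. The genotypes did not overlap, and H2-DMb1 fell by 0.85 (SE 0.109, edgeR adjusted p = 1.66e-05), a 1.80-fold lower level, and by 0.89 without ArKI replicate 2. This difference was not the same in the segments: the caput difference minus the IS difference was -0.88 (SE 0.147, edgeR adjusted p = 0.000137). H2-DMb1 was the only class II gene called in that test of 9 genes, where 7.38% of the 14329 genes tested were called higher and 7.77% lower. For H2-Aa, H2-Ab1 and Cd74 the same contrast gave -0.04 (95% interval -0.55 to 0.48), -0.01 (-0.52 to 0.51) and 0.10 (-0.40 to 0.60), and for H2-Eb1 it gave 0.28 (-0.27 to 0.82). H2-DMa differed from its IS value by 0.39 without a call (edgeR adjusted p = 0.103), with a call only when IS ArKI replicate 4 was left out (0.47, edgeR adjusted p = 0.0468).

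H2-DMa read 10.9 to 12.2 CPM in WT caput and 8.83 to 12.7 CPM in ArKI caput, a difference of -0.14 that was not called (95% interval -0.35 to 0.07, edgeR adjusted p = 0.373). H2-DMb2 read 0.670 to 5.26 CPM in WT and 1.05 to 4.83 CPM in ArKI, and its difference of -0.06 had a 95% interval of -1.10 to 0.99. Its spread within each genotype was too wide to show a 2-fold difference.

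The remaining caput genes were under the filter. H2-Oa had 4, 1, 2, 0 and 1 counts in the WT caput samples and 8, 4, 7, 15 and 10 in the ArKI samples, or means of 0.163 ± 0.145 and 0.868 ± 0.228 CPM (SD, n = 5). The CPM values of the genotypes did not overlap, and the difference of log2(CPM + 0.5) was 1.06 (exact permutation test, two-sided, p = 0.00794, the smallest that 5 against 5 samples allow). Adjusted over the 8 exact tests it was 0.0635, a value set by the design, since 1 test at the smallest possible p cannot pass 0.05 in a family of 8. With no filter on low counts, edgeR called H2-Oa higher (2.28, SE 0.519, edgeR adjusted p = 0.00168). Of the 50-base windows of H2-Oa 21.66% also occur in the gene BC051537. Ciita read 0.574, 0.716, 0.986, 0.803 and 0.993 CPM in WT and 1.70, 2.52, 1.35, 1.14 and 0.937 CPM in ArKI, with 6 to 9 and 12 to 16 counts. Its difference was 0.59 (exact permutation test, two-sided, p = 0.0238), and the lowest ArKI sample lay within the WT range. Adjusted over the 8 exact tests it was 0.0952, and the highest value came from ArKI replicate 2. Ciita passed the filter when ArKI replicate 5, its lowest ArKI sample, was left out and was then called (0.94, edgeR adjusted p = 0.0431). It passed there only through the ArKI samples, so that direction was set by the filter. H2-Ob differed by 0.17 (exact permutation test, two-sided, p = 0.389).

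In the testis only H2-Eb1 was called among 6 genes tested, as higher in ArKI, where 1.64% of the 15838 genes tested were called higher and 0.328% lower. It read 6.33, 7.86 and 3.79 CPM in WT and 10.46, 14.7 and 10.7 CPM in ArKI. The genotypes did not overlap, and the difference was 0.98 (SE 0.198, edgeR adjusted p = 0.0157). The call was lost without WT replicate 1, ArKI replicate 1 or ArKI replicate 2, with edgeR adjusted p of 0.0905, 0.0599 and 0.0513.

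H2-Aa read 9.14, 11.1 and 6.11 CPM in WT testis and 10.3, 15.9 and 12.5 CPM in ArKI testis, a difference of 0.54 (SE 0.188, edgeR adjusted p = 0.218). For Cd74 the values were 17.4, 20.6 and 11.5 CPM in WT and 21.1, 31.4 and 21.4 CPM in ArKI, which did not overlap, with a difference of 0.56 (95% interval 0.11 to 1.02, edgeR adjusted p = 0.374). H2-Ab1 differed by 0.29 (edgeR adjusted p = 0.276), H2-DMa by 0.05 and H2-DMb1 by -0.14. All 4 genes of the chains and the invariant chain had a higher mean in ArKI testis. The replicate block gave Cd74 an edgeR adjusted p of 0.0152 and so added it to the calls. Testis somatic markers also differed, with sums of 478 to 591 CPM in WT and 862 to 914 CPM in ArKI testis, where the steroidogenic genes Cyp11a1 and Cyp17a1 rose by 0.92 and 0.59 and Sox9 and Amh were not called. Their part in the class II values was not tested. Ciita had 6, 1 and 1 counts in WT testis and 5, 6 and 7 in ArKI (exact permutation test, two-sided, p = 0.30, where 3 against 3 samples cannot go below 0.10). No testis library held more than 7 counts of H2-DMb2, H2-Oa or H2-Ob.

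Correlations between the genes differed by set. Over the 20 epididymal samples, Pearson's r of log2(CPM + 0.5) was between 0.96 and 0.99 for the 6 pairs among H2-Aa, H2-Ab1, H2-Eb1 and Cd74, and between 0.85 and 0.90 for the 3 pairs among the DM genes. Between these sets it was 0.15 to 0.50. After each group's mean was subtracted, the chain and invariant chain pairs still had r of 0.86 to 0.96, whereas the DM pairs had 0.24 to 0.34 and pairs between the sets had 0.02 to 0.56, the highest being H2-Ab1 with H2-DMb1. Within groups H2-DMa and H2-DMb1 were thus no closer to the other DM genes than to H2-Ab1. H2-DMb2 had its highest value of these, 0.32, with H2-DMa. Ciita had r of 0.77 to 0.83 with the chains and Cd74 and 0.41 to 0.59 with the DM genes, and 0.50 to 0.57 and 0.04 to 0.18 after subtraction. These points share libraries, runs and groups, and the genes differ in counting noise, so the values describe these samples only.

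**Figure D4:**
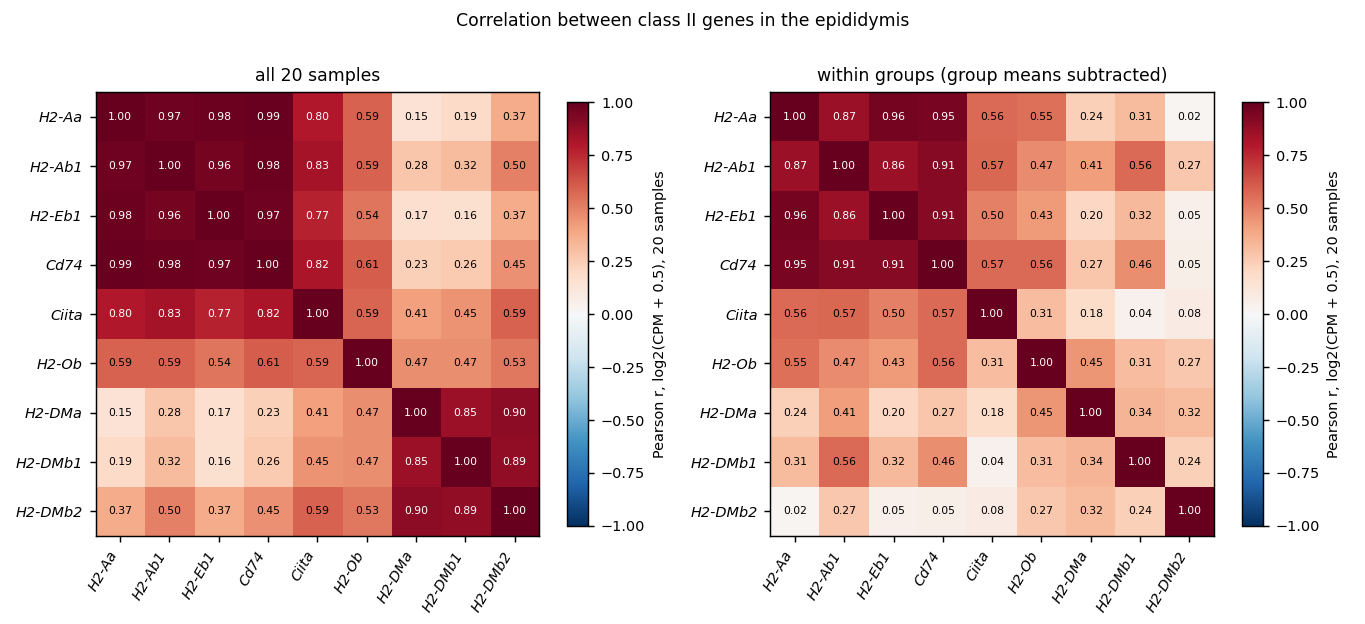
Pearson correlation of log2(CPM + 0.5) between 9 class II genes over the 20 epididymal samples, on the left as measured and on the right with the mean of each of the 4 groups subtracted. H2-Oa was under the filter and is left out. The chains and Cd74 form a block of at least 0.86 in both panels, and the DM genes form one only on the left, with 0.24 to 0.34 on the right.

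The genes outside the set whose pattern was most like the mean of the 9 class II genes over these 20 samples, of 14320 compared, were Dnahc9, Tm4sf1, Ptp4a2, Uox, Sema3d, Ugp2, Aldh3a2 and Pear1, with r of 0.954 to 0.959. After subtraction of group means they were Tuba1a at 0.89, Igfbp4 at 0.86, Wdr65 at 0.84 and Ngfr at 0.83, followed by Rarres2, Efs, Tuba1c and Mdh1b at 0.80 to 0.81. With the mean of only H2-Aa, H2-Ab1, H2-Eb1 and Cd74, a choice made after their values were seen, the closest genes within groups were Igfbp4 and Rarres2, both at 0.92, Ngfr at 0.88, Tuba1a and H2-D1 at 0.84, Ptgis and H2-K1 at 0.82 and Psmb9 at 0.81.

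Of 6 genes that cut or reduce antigen and the invariant chain, Ctsb and Ifi30 were higher in the ArKI IS and Ctsd lower. Cathepsin B gene Ctsb rose by 0.22 in the IS, 0.29 in the caput and 0.53 in the testis, and cathepsin D gene Ctsd fell by 0.35 in the IS and by 0.18 in the caput but rose by 0.39 in the testis. Cathepsin S, which makes the last cut of the invariant chain, was not called in any tissue. Of the 7 factors that bind the class II promoter only Nfyb was called, and it rose by 0.17 in the IS and 0.36 in the caput (edgeR adjusted p = 0.0479 and 0.000774). Over all genes tested 15% were called higher and 14.6% lower in the IS, and 13.7% and 14% in the caput. A call for 1 of 7 genes is near the share called higher. Rfx5, Rfxap and Rfxank, the X box complex, were not called in any genotype comparison. In the list of surface turnover genes only Marchf8, a ligase for surface proteins, was called, lower by 0.20 in the caput.

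Interferon gamma is the best known inducer of Ciita. Ifng had no count in any of the 26 samples, which allows up to 0.176 to 0.631 CPM per sample, and Irf1 was not called in the genotype comparison of any tissue. Of the 8 genes of that axis Jak2 rose in the IS and caput, by 0.18 and 0.21, and Ifngr1 and Jak1 fell in the IS, by 0.27 and 0.18. Of the 10 class I presentation genes 2 were higher in the ArKI IS, 3 were higher and 2 lower in the ArKI caput, and 4 were higher in the ArKI testis. Over all genes tested 15% were called higher and 14.6% lower in the IS, and 13.7% and 14% in the caput. In the testis these shares were 1.64% and 0.328%. B2m, the light chain of class I, was higher in all tissues, by 0.48, 0.40 and 0.93. Nlrc5, the class I counterpart of Ciita, rose by 0.77 in the IS and 0.70 in the caput (edgeR adjusted p = 0.00118 and 0.0422). The heavy chain genes H2-D1 and H2-K1 fell by 0.34 and 0.30 in the caput and rose by 0.42 and 0.30 in the testis, where Psmb9 of the immunoproteasome rose by 1.49 (edgeR adjusted p = 0.0444). Of 6 costimulation genes 3 could be tested and only Icosl was called, and it fell by 0.62 in the IS and by 0.53 in the caput.

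In the IS the markers of cells that could carry class II were mostly lower in ArKI or not called. Over all genes tested in the IS 15% were called higher and 14.6% lower. Of 13 macrophage markers 4 were lower in the ArKI IS and none was higher: Cx3cr1 fell by 0.68 (edgeR adjusted p = 1.17e-05), Csf1r by 0.54, Adgre1 by 0.52 and C1qa by 0.39. Their summed level was 291 to 382 CPM in WT IS and 247 to 322 CPM in ArKI IS, and no marker of the list was at 0 in all samples of a group. Of 7 leukocyte markers Lcp1 and Cd52 were lower and Cd53 was higher, with Ptprc at 10.96 ± 1.42 CPM in WT and 9.87 ± 0.645 CPM in ArKI. Lcp1 and Cd52 made up most of the leukocyte sum (840 to 952 CPM in WT, 606 to 691 CPM in ArKI), and Cd52 is known to be made by epididymal epithelium too. Of 10 dendritic cell markers 5 could be tested and Itgax was lower. Their summed level was 85.3 to 97.0 CPM in WT and 78.9 to 89.7 CPM in ArKI, but the mean over the 10 markers of log2(CPM + 0.5), which weighs the low ones equally, went the other way, at 1.08 to 1.51 in WT and 1.42 to 1.58 in ArKI. The 4 smooth muscle markers Acta2, Myh11, Des and Tagln were all lower in the ArKI IS, by 0.79 to 1.03, with summed levels of 482 to 554 CPM in WT and 213 to 377 CPM in ArKI. Basal cell markers, of which Krt5 and Trp63 were called lower, summed to 246 to 290 CPM in WT IS and 192 to 220 CPM in ArKI IS. Late germ cell markers summed to 7.60 to 49.3 CPM in WT IS and 1.19 to 4.16 CPM in ArKI IS, and both that could be tested, Prm2 and Odf1, were lower. Both needed WT samples to pass the filter, so their direction was in part set by it. Epcam was the 1 of 4 epithelial markers called, higher by 0.14, and of the 6 proximal epididymis markers Crisp1, Cst8, Lcn8 and Rnase10 were lower and Adam7 was higher. Of the testis somatic list Cyp11a1 and Sox9 were higher, by 0.77 and 0.32.

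In the caput none of the 13 macrophage markers was called, and their summed level was 176 to 223 CPM in WT and 209 to 302 CPM in ArKI, or 209 to 228 CPM without ArKI replicate 2. Over all genes tested 13.7% were called higher and 14% lower in the caput, and 1.64% and 0.328% in the testis. Of the 7 leukocyte markers 2 were called, Coro1a and Itgb2, higher in ArKI by 0.87 and 0.58, while the sum of the list, most of it Lcp1 and Cd52, overlapped at 647 to 851 CPM in WT and 627 to 928 CPM in ArKI. Of the 6 dendritic cell markers tested 1 was called, Clec9a, a marker of cross-presenting cells, which was higher by 1.10 at 0.639 ± 0.0913 CPM in WT and 1.44 ± 0.380 CPM in ArKI. Clec9a passed the filter only through the ArKI samples, so its direction was set by the filter. Epithelial markers were higher in the ArKI caput in 3 of 4 cases (Epcam by 0.32, Cdh1 by 0.31 and Krt18 by 0.21), with sums of 1064 to 1128 CPM in WT and 1264 to 1384 CPM in ArKI. The list of testis somatic markers summed to 62.5 to 69.8 CPM in WT caput and 98.1 to 114 CPM in ArKI caput, and both members tested there, Sox9 and Cyp17a1, were higher, by 0.74 and 0.44. The caput difference minus the IS difference was 0.76 for Cx3cr1, 0.72 for Csf1r and 0.72 for Adgre1, which are 3 of the 4 macrophage markers that were lower in the ArKI IS (edgeR adjusted p from 0.000765 to 0.0290), and 0.59 without a call for C1qa (edgeR adjusted p = 0.115). B cells, which carry class II constitutively, were hardly represented: none of their 7 markers passed the filter in the IS or the caput, where the list summed to 0.444 to 2.60 CPM. In the testis 1 of 12 macrophage markers was called, C1qb, higher by 0.49, and none of the 7 leukocyte markers. The macrophage sum was 525 to 597 CPM in WT and 571 to 642 CPM in ArKI testis, and the leukocyte sum was 19.3 to 24.0 CPM in WT and 24.3 to 28.1 CPM in ArKI testis. Of the 8 T cell markers and the 3 neutrophil markers in the table none was called in a genotype comparison. The part of these cells in the class II differences was not tested.

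**Figure D5:**
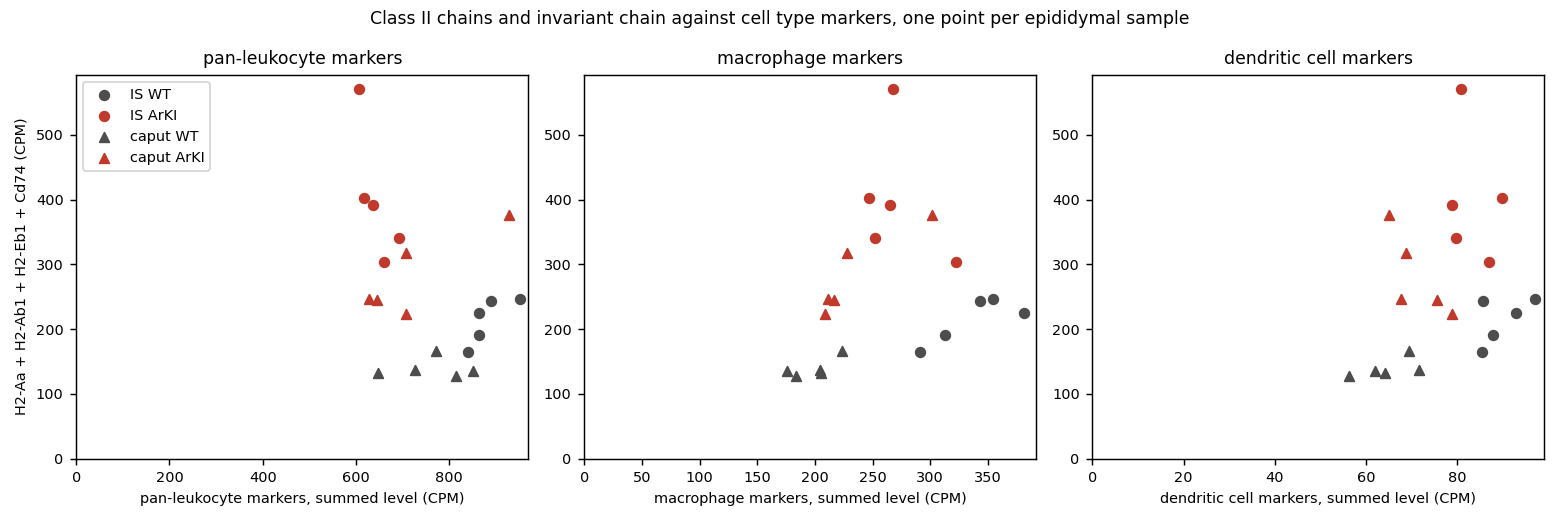
Summed level of H2-Aa, H2-Ab1, H2-Eb1 and Cd74 (CPM) against the summed level of leukocyte, macrophage and dendritic cell markers (CPM), one point per epididymal sample, circles for IS and triangles for caput, grey for WT and red for ArKI. ArKI IS samples lie above WT IS samples on the class II axis (304 to 571 against 165 to 247 CPM) and to the left of them for leukocyte markers (606 to 691 against 840 to 952 CPM).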

How the data were processed

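Sequencing gave 50-base single-end reads, with 5 mice per genotype for the IS and the caput and 3 per genotype for the testis. Whether IS and caput samples of a number came from one animal is not stated. The labels name a TruSeq RNA v2 kit and the study's methods a stranded one, and strand use in counting is not stated. The authors aligned reads to mm10 with STAR and deposited raw counts of uniquely mapped reads per gene, made with Subread 1.5.1 after bcl2fastq 1.8.4. No values were normalized before deposit.

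Here, counts of all genes were tested with edgeR 4.0.16 (R 4.3.3): filterByExpr (minimum count 10), TMM factors, robust quasi-likelihood fit and test, with Benjamini-Hochberg adjustment over all genes tested and calls at an adjusted p below 0.05. SE was the log2 fold change over the root of F. The study's ROTS test was not run. Genes under the filter were compared by exact permutation of log2(CPM + 0.5). Printed CPM used TMM over all 26 samples, and levels per kb used exon lengths of GENCODE transcripts with a RefSeq match. Depth ranged from 4125768 to 21376604 counts per sample, so 3 counts, the limit that a count of 0 allows, were 0.176 to 0.631 CPM.

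Alternatives were RLE or no scaling, other filters, DESeq2 1.42.0, limma 3.58.1 (voom), the study's thresholds, a replicate block, a shared fit and leaving out each replicate. Scripts were tested on simulated counts. The class II genes and all other lists were chosen with earlier results of these data known. The rule for other lists was to name called genes with the largest change, at most 4 per comparison; it was followed only in part, and some called genes stand only in counts or are left out. Also named were genes with the highest r to the class II mean. Genes named besides these, where not called, were chosen after their values were seen.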

Additional observations from a re-analysis of the deposited data

Results flagged for a closer look

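Of 40 sets of 5 samples (each class II gene in each epididymal group), 2 held a sample farther from the rest than Dixon's 95% limit, where chance gives about 1 in 20. H2-DMb2 in caput ArKI replicate 3 was at 4.83 CPM, against 1.95 CPM in the next sample. H2-Oa in IS WT replicate 4 was at 0.666 CPM (5 counts), against 0.234 CPM in the next.

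The genotype difference of H2-DMb1 differed between the segments, with a caput minus IS contrast of -0.88 on the log2 scale in edgeR's interaction test (adjusted p = 0.000137). It ranged from -0.95 to -0.80 over all alternatives run and was called in each of them except under the study's fold threshold.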

How the results depend on the processing

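The number of class II genes called stayed within 1.5 times the reported one in most settings, including RLE factors, library size only, both filters, DESeq2, limma-voom and, in the epididymis, the shared fit. The study's thresholds (FDR below 0.01, in the testis 0.2, and fold change above 2) cut it to 1 of 7 in the IS, 2 of 5 in the caput, 0 of 1 in the testis, 0 of 1 for the interaction and 2 of 7 for WT IS against WT caput. With the replicate block the testis count was 2, since Cd74 was added at an adjusted p of 0.0152. Same-numbered samples did not deviate together (correlations of -0.26 to 0.31, not over 0.1 in every pair of any comparison), and the block changed no other call. Leaving out each replicate gave 0 to 1 calls in the testis and 1 to 2 for the interaction.

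Of 895 alternative values of single genes 848 kept their direction and side of the threshold, 13 lost a call, 2 gained one and 32 changed sign, all of these uncalled. Genes under the filter were also called in some settings: with no filter H2-Oa in the caput, Ciita in WT IS against WT caput (1.10) and H2-Oa and H2-Ob in WT testis, and with 1 library left out Ciita in the caput, Ciita in WT IS against WT caput and H2-Ob in WT testis. In the fits with 1 library left out these genes passed the filter only through the group where they were higher, so their direction was set by the filter. Sign changes were to 0.14 for H2-DMb2 in the caput with limma-voom and, in the interaction, to 0.0018 and 0.0064 for H2-Ab1 with library size only and DESeq2. Leave-one-out ranges spanned 0 for H2-DMb1 in the IS (-0.020 to 0.087), H2-DMb2 in the caput (-0.53 to 0.40), H2-DMa in the testis (-0.043 to 0.15) and, in the interaction, for H2-Aa (-0.15 to 0.15), H2-Ab1 (-0.11 to 0.15), Cd74 (-0.031 to 0.27), Ciita (-0.50 to 0.037), H2-Ob (-0.56 to 0.0029) and H2-DMb2 (-0.26 to 0.68). The cause was not tested. Depth limits H2-Oa, H2-Ob and Ciita, which had fewer than 20 counts in most samples.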
